A study of Mus musculus with 6 samples.

Results

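The transcripts of 10 chains of the receptors for IL-4, IL-21, IL-9, IL-13, IL-6, IL-10 and the interferons were measured by RNA-Seq. The cells were mouse GC B cells and their naive counterparts, both sorted from Peyer's patches. The chains were the products of Il21r, Il4ra, Il2rg, Il9r, Il13ra1, Il10ra, Il6ra, Il6st, Ifngr1 and Ifnar1, taken as a list of 10 gene symbols and matched by Ensembl identifier among the 39179 identifiers with a value. All 10 were found, and 9 reached the level needed for testing, which was 1 TPM (transcripts per 1000000 transcripts) in at least 3 of the 6 samples.

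Both populations came from the ileal Peyer's patches of female wild-type C57BL/6 mice at 12 wk of age, and no genotype or treatment separated them. GC B cells were sorted as Fas+GL7+ and naive B cells as Fas-GL7- among cells with a B lineage surface marker. There were 3 replicates per population, each of them cells pooled from several mice, so p-values measured the spread between pools and not between single animals. The surface markers of the sort do not separate centroblasts from centrocytes, and the naive gate holds every B cell that lacks Fas and GL7.

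Cytokine receptors of this family have no enzyme activity of their own. Ligand binding brings at least a pair of chains together, and the JAK kinases bound to their tails then phosphorylate STAT factors, which enter the nucleus. IL-4 and IL-21, made by T follicular helper cells, are the best known helper cytokines of GC B cells: IL-4 acts mainly through STAT6 and IL-21 mainly through STAT3, and both receptors share the common gamma chain encoded by Il2rg. The interferon and IL-10 receptors belong to a related class. In those for IL-10 and IFN-gamma a longer ligand-binding chain pairs with a shorter accessory chain. STAT2 is a factor of type I interferon signaling.

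In all, 8 of the 10 chains fell in GC B cells, 1 rose, and 1 was too low to test. The ones that fell ranged from Il10ra, with a 33.3-fold lower mean level in GC B cells, to Ifngr1, which was 1.15-fold lower. The one that rose was Il9r. In limma's comparison of log2(TPM + 1) between the populations, 9 of the 9 chains tested passed a Benjamini-Hochberg adjusted p of 0.05, beside 65.6% of the 12785 genes tested. A fall was called for 8 of them beside 30.1% of all genes, and a rise for 1 beside 35.5%. The median log2 fold change (GC minus naive) was -1.45 over these chains and 0.03 over all genes tested. By the fitted change, 6 chains were called over 2-fold lower, beside 1437 of the 12785 genes tested. The call of Ifngr1, the chain with the smallest fall, was lost in some of the fits that left out 1 pool. For each of the 9 the GC and naive pools did not overlap, which held for 70.7% of all genes. All 9 had at least 1 TPM in each of the 6 pools, so no chain entered the test only through the population in which it was higher. The chains and the gene lists below were chosen with earlier results of these data known. Counts set beside the shares over all genes therefore describe the lists and do not test them. In sorted cells a lower level can come from fewer cells with the transcript or from less of it per cell, and these cannot be told apart here.

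**Figure D1:**
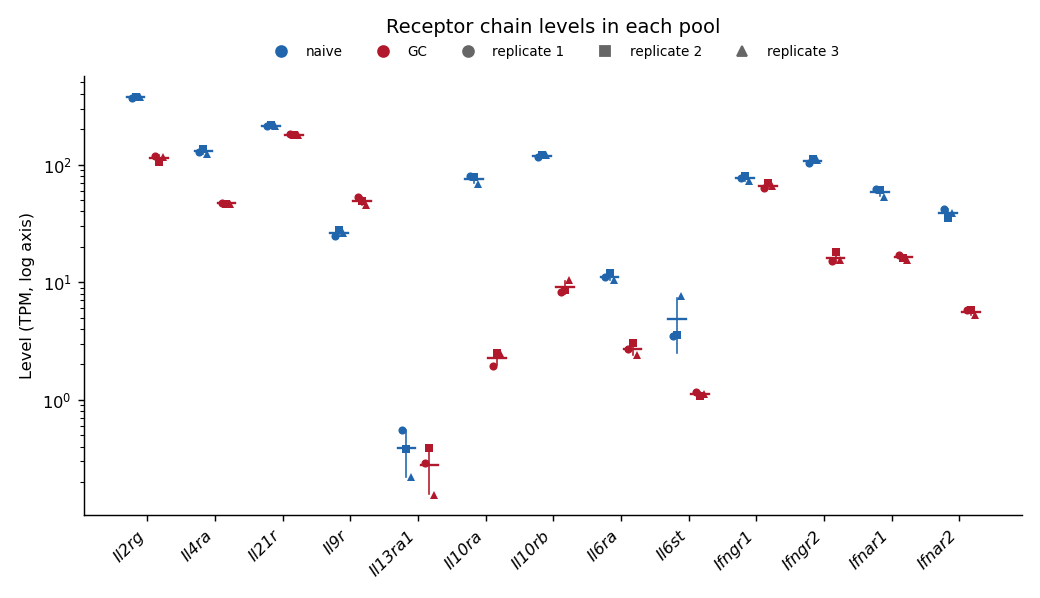
Levels of 9 tested chains, of Il13ra1 and of the partner chains Il10rb, Ifngr2 and Ifnar2 in TPM on a log axis, with 1 point per pool, the mean as a horizontal bar and the SD as a vertical line (n = 3). GC pools lie below naive pools for every chain except Il9r, where they lie above, and Il13ra1, where the pools overlap.

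The labels were first checked against the sort markers. The summed level of 5 GC markers was 1134 to 1173 TPM in GC and 51.5 to 57.2 TPM in naive pools, and that of 5 naive markers was 12.5 to 14.3 TPM against 934.2 to 1014 TPM. The 5 pan-B cell genes summed to 3782 to 3817 TPM in GC and 5633 to 5766 TPM in naive pools. The 8 T cell genes, none of them high enough to test, summed to 1.91 to 4.22 TPM over all pools, and the 4 NK and innate genes to at most 0.71 TPM, with Ncr1 listed at 0. The 7 myeloid genes summed to 1.51 to 3.10 TPM in GC and 4.58 to 7.41 TPM in naive pools, with Fcgr1 listed at 0, and the 7 epithelial genes to 27.5 to 47.8 TPM and 58.5 to 91.8 TPM. Of the 6 epithelial genes tested, 4 were lower and 1 higher in GC B cells, beside 30.1% and 35.5% of all genes tested. The 1 myeloid gene tested did not pass. The stromal and endothelial sum of 22.6 to 24.7 TPM in GC and 122.1 to 132.5 TPM in naive pools was nearly all Pecam1, which B cells can also express. The 4 plasma cell genes summed to 662.7 to 698.2 TPM in GC and 26.3 to 44.9 TPM in naive pools, most of it Igj, the antibody J chain. Igj and Prdm1 were called higher in GC B cells, but Sdc1 was called lower (means of 1.51 against 3.19 TPM in naive). Prdm1 and Sdc1 were under 1 TPM in at least 1 pool. The plasma cell sum moved in the direction of Il9r, the myeloid, epithelial and stromal sums moved in the same direction as most receptor chains, and their part in the results was not tested. Depth read from the steps between low values was about 9900000 to 16200000 reads per pool.

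The promoters below are shown because the receptor genes lie in clusters whose members could be compared. On chromosome 16 of GRCm38.p6, Ifnar2 (chr16:91372783-91405589), Il10rb (chr16:91406157-91425834), Ifnar1 (chr16:91485032-91510523) and Ifngr2 (chr16:91547059-91564007) follow each other with gaps of 568 bases, 59.2 kb and 36.5 kb and no other protein-coding gene in between. On chromosome 7, Il4ra (chr7:125552271-125579474) and Il21r (chr7:125603252-125634397) lie 23.8 kb apart, again with no protein-coding gene between them. Il9r (chr11:32187544-32205283) is added as the chain that rose. Each sequence is the RefSeq window of 250 bases before and 50 bases after 1 start of the gene, which need not be the outermost start, read 5′ to 3′ on the strand of the gene. The windows are chr16:91372533-91372832 (+) for Ifnar2, chr16:91484965-91485264 (+) for Ifnar1, chr16:91546809-91547108 (+) for Ifngr2, chr7:125552021-125552320 (+) for Il4ra, chr7:125603179-125603478 (+) for Il21r and chr11:32200230-32200529 (-) for Il9r. Capitals mark matches to the STAT letters, TTC and GAA with 3 bases between them (TTCNNNGAA) or with 4.
Ifnar2: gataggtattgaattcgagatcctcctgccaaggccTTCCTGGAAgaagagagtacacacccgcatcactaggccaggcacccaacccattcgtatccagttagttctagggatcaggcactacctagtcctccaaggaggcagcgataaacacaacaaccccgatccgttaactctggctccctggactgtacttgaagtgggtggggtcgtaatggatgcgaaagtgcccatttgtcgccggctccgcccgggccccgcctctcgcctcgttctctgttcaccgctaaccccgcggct
Ifnar1: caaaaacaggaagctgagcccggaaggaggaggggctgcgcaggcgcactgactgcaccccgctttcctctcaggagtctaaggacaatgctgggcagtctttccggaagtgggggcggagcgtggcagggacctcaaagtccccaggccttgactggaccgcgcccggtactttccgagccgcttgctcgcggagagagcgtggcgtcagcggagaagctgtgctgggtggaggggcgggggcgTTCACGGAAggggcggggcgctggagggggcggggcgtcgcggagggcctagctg
Ifngr2: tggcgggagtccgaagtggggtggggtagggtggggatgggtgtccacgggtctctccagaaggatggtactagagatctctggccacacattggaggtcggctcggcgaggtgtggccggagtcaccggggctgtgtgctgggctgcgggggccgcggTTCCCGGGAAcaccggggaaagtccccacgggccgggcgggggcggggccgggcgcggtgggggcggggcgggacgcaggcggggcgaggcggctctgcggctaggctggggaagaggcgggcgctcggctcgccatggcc
Il4ra: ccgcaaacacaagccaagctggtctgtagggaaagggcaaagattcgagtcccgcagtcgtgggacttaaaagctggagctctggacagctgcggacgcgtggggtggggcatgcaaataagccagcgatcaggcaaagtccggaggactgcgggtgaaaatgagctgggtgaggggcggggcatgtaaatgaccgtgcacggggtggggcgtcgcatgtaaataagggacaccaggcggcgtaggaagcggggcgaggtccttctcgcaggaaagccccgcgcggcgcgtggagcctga
Il21r: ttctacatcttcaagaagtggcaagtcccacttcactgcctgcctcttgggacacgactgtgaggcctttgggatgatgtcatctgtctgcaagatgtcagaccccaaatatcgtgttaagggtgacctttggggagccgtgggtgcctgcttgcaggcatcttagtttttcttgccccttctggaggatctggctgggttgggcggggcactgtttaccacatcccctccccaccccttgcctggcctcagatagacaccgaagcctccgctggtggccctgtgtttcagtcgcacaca
Il9r: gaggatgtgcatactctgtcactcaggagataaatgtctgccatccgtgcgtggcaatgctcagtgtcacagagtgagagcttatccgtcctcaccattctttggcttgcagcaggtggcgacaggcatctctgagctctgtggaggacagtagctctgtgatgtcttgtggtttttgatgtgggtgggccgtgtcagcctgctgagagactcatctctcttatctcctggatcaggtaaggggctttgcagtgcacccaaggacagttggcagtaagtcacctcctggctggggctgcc

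Of the 14 receptor genes, counting the 10 chains and the partners Il10rb, Ifngr2, Ifnar2 and Il13ra2, a promoter window was found for 12. No window was available for Il10ra and Il10rb, so these genes were not searched. TTCNNNGAA, which reads the same on both strands, was present in Ifnar2 and Ifnar1. In Ifnar2 the match was TTCCTGGAA, at bases 37 to 45 of the window, and in Ifnar1 it was TTCACGGAA, at bases 246 to 254, across the start itself. The form with 4 bases between TTC and GAA, also the same on both strands, was present only in Ifngr2 among the 12, as TTCCCGGGAA at bases 160 to 169. The interferon-response letters, GAAA followed after 2 bases by another GAAA, searched on both strands, were in none of the 12. These letters occurred in 8.3%, 6.95% and 3.44% of all 32851 promoter windows, respectively. A match is a description of the letters and not of a bound site. Other letter patterns were also looked at without being kept. The neighbours Il4ra and Il21r differed in base composition: the Il4ra window held 25 CpG and 62.0% G or C, whereas that of Il21r held 7 CpG and 56.0%. Il9r held 5 CpG, and the median over all windows was 7 CpG and 52.7%.

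Among the chains for the cytokines of T follicular helper cells, the common gamma chain and the IL-4 receptor alpha chain fell about 3-fold in GC B cells, while the IL-21 receptor changed little. Il2rg (ENSMUSG00000031304, chrX:101264385-101268255), which also serves the receptors for IL-2, IL-7, IL-9 and IL-15, measured 119.3, 104.5 and 116.9 TPM in GC replicates 1 to 3. In naive replicates 1 to 3 it measured 370.2, 379.3 and 377.2 TPM. The populations were far apart relative to their spread (113.5 ± 7.90 against 375.6 ± 4.76 TPM, SD, n = 3 each). The level was 3.31-fold lower in GC B cells, with a log2 fold change of -1.72 ± 0.058 (SE; limma adjusted p = 1.38e-06).

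Il4ra (ENSMUSG00000030748), the chain that binds IL-4 and carries the STAT6 docking sites, stood at 47.25, 46.40 and 46.66 TPM in GC replicates 1 to 3 and at 128.3, 135.8 and 124.3 TPM in naive replicates 1 to 3. The GC pools were nearly identical and all lay below the lowest naive pool. This was a 2.77-fold lower level (log2 fold change -1.45 ± 0.05 SE; limma adjusted p = 1.52e-06).

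Il21r (ENSMUSG00000030745), the ligand-binding chain for IL-21, was at 183.7, 177.1 and 179.3 TPM in GC B cells and at 213.8, 217.4 and 213.0 TPM in naive B cells. The pools did not overlap, but the difference was only 1.19-fold (log2 fold change -0.25, 95% interval -0.34 to -0.16; limma adjusted p = 0.00103). Its pools varied by only a few TPM (SD 3.38 in GC and 2.37 in naive B cells, n = 3). Il21r and its neighbour Il4ra thus differed in how far they fell. The ratio of Il21r to Il4ra within a pool, which does not depend on how the pool is scaled, was 3.89, 3.82 and 3.84 in GC B cells and 1.67, 1.60 and 1.71 in naive B cells.

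Il9r (ENSMUSG00000020279), the specific chain of the IL-9 receptor, was the only one of the 9 that was higher in GC B cells. It measured 53.51, 49.39 and 45.29 TPM in GC B cells and 24.76, 27.55 and 25.97 TPM in naive B cells. The lowest GC pool lay well above the highest naive pool. The increase was 1.89-fold (log2 fold change 0.89 ± 0.081 SE; limma adjusted p = 0.000113). Its position in the order of the 9 chains moved from below Ifnar1 in naive B cells to above it in GC B cells. Ifnar1 itself fell, from a mean of 58.9 TPM in naive to 16.2 TPM in GC B cells.

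Il13ra1 (chrX:36112108-36171262) pairs with the IL-4 receptor alpha chain in the receptor that also binds IL-13. It was close to the limit of detection, at 0.289, 0.388 and 0.153 TPM in GC pools and 0.554, 0.383 and 0.220 TPM in naive pools. The pools overlapped (exact two-sided permutation test, p = 0.5). With no filter on low values it was among 20845 genes tested and did not pass (log2 fold change -0.11 ± 0.119 SE; limma adjusted p = 0.493). The decoy receptor for IL-13, Il13ra2, was listed at 0 in every pool.

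**Figure D2:**
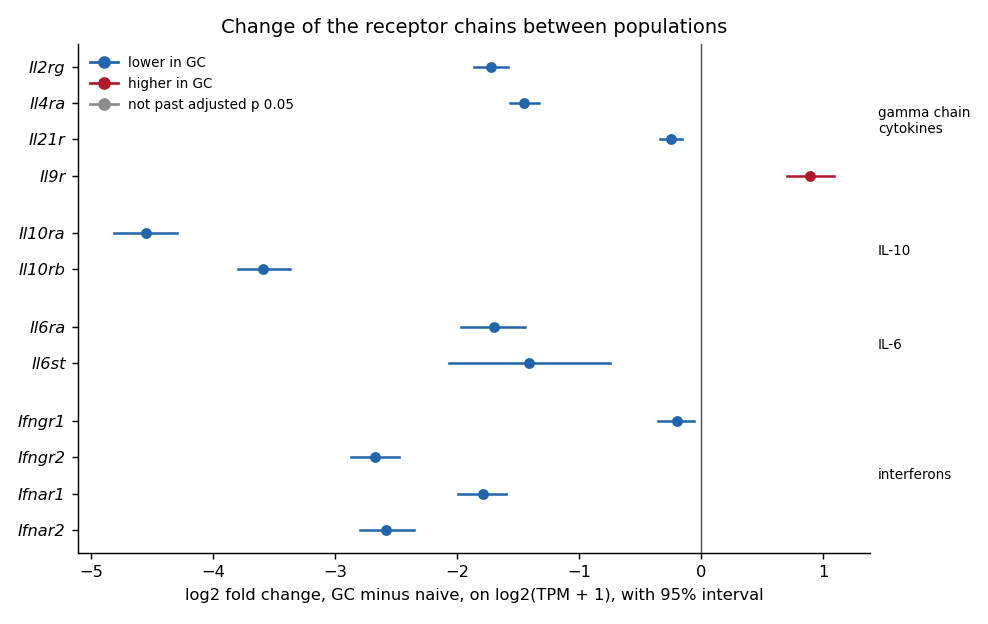
Log2 fold change (GC minus naive, on log2(TPM + 1)) of the 9 tested chains and 3 partner chains, grouped by the cytokines they bind, with 95% intervals from limma (n = 3 pools per population). Il10ra and Il10rb lie farthest to the left, Il21r and Ifngr1 lie close to 0, and Il9r is to the right of 0.

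The IL-10 receptor chains had the largest fold changes among the 10 chains and their partner chains, and both subunits fell. Il10ra (ENSMUSG00000032089, chr9:45253837-45269149), the ligand-binding chain that signals mainly through STAT3, was at 1.93, 2.51 and 2.40 TPM in GC pools. In naive pools it stood at 80.6, 78.1 and 69.0 TPM. No GC pool came near a naive pool: the mean was 33.3-fold lower, and the log2 fold change on log2(TPM + 1), which understates changes at such low levels, was -4.55 ± 0.106 (SE; limma adjusted p = 3.54e-07). This log2 fold change lay at the 0.4 percentile of all genes tested.

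Il10rb, the accessory chain shared with the receptors for IL-22 and interferon lambda, was at 8.28, 8.499 and 10.4 TPM in GC pools and 116.5, 120.6 and 120.4 TPM in naive pools. It was 13.2-fold lower in GC B cells (log2 fold change -3.59 ± 0.09 SE; limma adjusted p = 4.56e-07). Within a pool, Il10ra was at 0.253 ± 0.0363 of the level of Il10rb in GC B cells and at 0.637 ± 0.0601 in naive B cells (SD, n = 3), and the pools did not overlap.

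The IL-6 receptor chains were low in both populations and lower in GC B cells. Il6ra (chr3:89869324-89913196), which binds IL-6, was at 2.70, 3.05 and 2.43 TPM in GC pools and 11.0, 11.9 and 10.5 TPM in naive pools. The pools were separate, with a 4.08-fold lower level in GC B cells (log2 fold change -1.70 ± 0.11 SE; limma adjusted p = 2.45e-05).

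Il6st (chr13:112464070-112506860) encodes gp130, the signaling chain that IL-6 shares with IL-11, LIF and oncostatin M. It measured 1.17, 1.07 and 1.12 TPM in GC pools and 3.47, 3.56 and 7.69 TPM in naive pools. Naive replicate 3 stood apart from the other two, although all naive pools were above all GC pools. The level was 4.39-fold lower in GC B cells (log2 fold change -1.41 ± 0.272 SE; limma adjusted p = 0.00392), and 3.15-fold lower without naive replicate 3 (log2 fold change -1.09; adjusted p = 0.00116). In that pool the 4 NK and innate genes summed to 0.71 TPM, the highest of the 6 pools, while the myeloid, epithelial and stromal sums were not at their highest, and their part in this value was not tested. Because of it the ratio of Il6ra to Il6st overlapped between the populations, at 2.31, 2.86 and 2.18 in GC B cells and 3.18, 3.34 and 1.36 in naive B cells.

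In the interferon receptors, the ligand-binding chain for IFN-gamma changed little, and its accessory chain and both chains for the type I interferons fell. Ifngr1 (ENSMUSG00000020009, chr10:19591949-19610229) was at 63.3, 69.5 and 65.9 TPM in GC pools and 76.8, 79.8 and 72.6 TPM in naive pools. The highest GC pool lay just under the lowest naive pool, a difference of 1.15-fold (log2 fold change -0.20, 95% interval -0.35 to -0.06; limma adjusted p = 0.0225). This call was lost when GC replicate 1, GC replicate 3, naive replicate 1 or naive replicate 2 was left out (adjusted p = 0.0747, 0.063, 0.0637 and 0.0644, respectively, with limma). Each of the other 8 tested chains stayed past the threshold whichever pool was left out.

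Ifngr2, the accessory chain that recruits JAK2, was at 15.1, 18.0 and 15.4 TPM in GC pools and 104.0, 112.3 and 108.5 TPM in naive pools. The populations were separate, with a 6.69-fold lower level in GC B cells (log2 fold change -2.67 ± 0.081 SE; limma adjusted p = 8.99e-07). The order of the IFN-gamma receptor chains was therefore turned. In naive B cells Ifngr1 was at 0.738, 0.710 and 0.669 of the level of Ifngr2, and in GC B cells it was 4.19, 3.85 and 4.29 times as high.

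Ifnar1 (ENSMUSG00000022967) and Ifnar2 form the receptor for all type I interferons. Ifnar1 measured 17.1, 16.1 and 15.6 TPM in GC pools and 62.6, 60.6 and 53.4 TPM in naive pools, which was 3.63-fold lower in GC B cells (log2 fold change -1.79 ± 0.08 SE; limma adjusted p = 4.62e-06). Ifnar2 measured 5.76, 5.79 and 5.25 TPM in GC pools and 41.7, 34.9 and 38.6 TPM in naive pools, which was 6.86-fold lower (log2 fold change -2.58 ± 0.093 SE; limma adjusted p = 1.79e-06). Neither chain overlapped between the populations. The 4 neighbours on chromosome 16, Ifnar2, Il10rb, Ifnar1 and Ifngr2, were thus lower in GC B cells, by 3.63- to 13.2-fold.

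The levels of the chains, compared per transcript length in TPM, were ordered differently in the populations. In GC B cells Il21r was highest at 177.1 to 183.7 TPM, followed in their means by Il2rg at 113.5, Ifngr1 at 66.2, Il9r at 49.4, Il4ra at 46.8 and Ifnar1 at 16.2 TPM. Il6ra, Il10ra, Il6st and Il13ra1 followed at 2.72, 2.28, 1.12 and 0.277 TPM. The pools of Il9r and Il4ra overlapped, as did those of Il6ra and Il10ra, and all other neighbours in this order were separate. In naive B cells the order began with Il2rg at 375.6, Il21r at 214.7 and Il4ra at 129.5 TPM, followed by Ifngr1 at 76.4, Il10ra at 75.9 and Ifnar1 at 58.9 TPM. Il9r, Il6ra, Il6st and Il13ra1 closed it at 26.1, 11.1, 4.91 and 0.385 TPM, and only Ifngr1 and Il10ra overlapped. The 10 chains summed to 470.0 to 490.2 TPM in GC pools and 953.9 to 994.3 TPM in naive pools, and the partner chains to 29.2 to 32.3 TPM and 262.2 to 267.8 TPM.

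The balance between chains of the same receptor, and between Il21r and Il4ra of different receptors, was measured as their ratio in each pool. Relative to the common gamma chain, Il21r stood at 0.572 ± 0.00649 in naive and 1.59 ± 0.0906 in GC B cells (SD, n = 3). Il9r relative to Il2rg was at 0.0695 ± 0.00293 in naive and 0.436 ± 0.0438 in GC B cells. Il4ra, at 0.345 ± 0.0143 and 0.413 ± 0.0267, moved far less relative to Il2rg. On the log2 scale these differences (GC minus naive) were 1.47 for Il21r, 2.65 for Il9r and 0.26 for Il4ra. For the type I interferon receptor, Ifnar1 was at 1.54 ± 0.181 of Ifnar2 in naive and 2.90 ± 0.105 in GC B cells. In 7 of 9 ratios computed, the pools of the populations did not overlap, beside 70.7% of the single genes tested. The share over other gene pairs was not computed. Each of those 7 had the smallest p that 3 against 3 pools allow (exact two-sided permutation test, p = 0.1; 0.129 after Benjamini-Hochberg adjustment over 9 ratios), so none passed 0.05. The ratio of Il4ra to Il13ra1 overlapped (exact permutation p = 0.2), as Il13ra1 was barely detected, and so did that of Il6ra to Il6st (exact permutation p = 1.0).

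**Figure D3:**
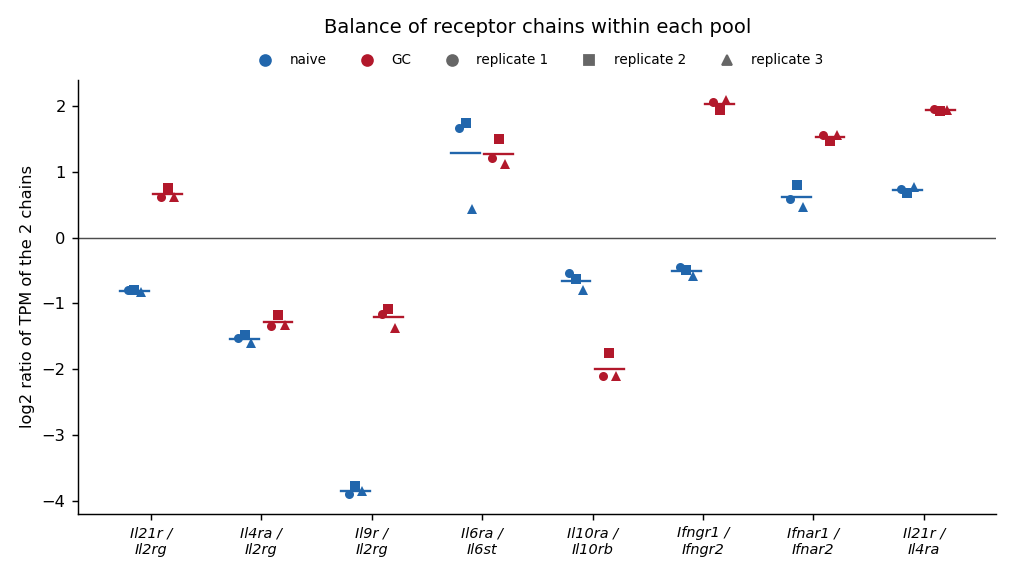
Log2 ratio of the TPM of a pair of receptor chains in each pool for 8 of the 9 ratios, with the mean as a horizontal bar (n = 3). GC and naive pools are separate in 7 of the 8 shown, overlap for Il6ra to Il6st, and lie on opposite sides of the line of equal level for Il21r to Il2rg and Ifngr1 to Ifngr2.

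The other receptor chains of the family were mixed. Of 27 such genes, 14 were high enough to test, and 6 of these, among them Il5ra and Il2rb, were under 1 TPM in at least 1 pool, so that they could enter through the population in which they were higher. Of the 8 with at least 1 TPM in every pool, 4 were lower and 2 higher in GC B cells, beside 30.1% and 35.5% of all genes tested, and the median log2 fold change was -0.47. Il5ra, the IL-5 receptor alpha chain of B-1 cells and eosinophils, was at 13.7 to 16.2 TPM in naive and 0.579 to 0.641 TPM in GC pools. Il27ra, which pairs with gp130 in the IL-27 receptor, was at 41.7 to 44.7 TPM in naive and 3.16 to 4.91 TPM in GC pools (log2 fold change -3.13; limma adjusted p = 4.17e-06). In the other direction, Il2rb, the beta chain for IL-2 and IL-15, was at 0.258 to 0.548 TPM in naive and 4.72 to 6.38 TPM in GC pools. Ifnlr1, the specific chain for interferon lambda, rose from 1.23 to 1.56 TPM in naive to 7.90 to 9.97 TPM in GC pools (log2 fold change 2.01; limma adjusted p = 2.34e-05). Its partner is Il10rb, which fell. None of the 11 ligand genes listed, among them Il4, Il21, Il9, Ifng and Ifnb1, reached the level for testing, and together they summed to 0.581 to 2.26 TPM in GC and 0.473 to 0.813 TPM in naive pools.

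Downstream of the receptors, 3 of the 4 kinases fell in GC B cells, beside 30.1% of all genes tested. Jak3, which binds the common gamma chain, was 1.802-fold lower (72.0 ± 2.14 against 129.7 ± 1.43 TPM, SD, n = 3; limma adjusted p = 8.66e-06), Jak1 had a log2 fold change of -0.47 (limma adjusted p = 0.000697) and Tyk2 of -0.45 (limma adjusted p = 0.00176). Jak2, which signals for IFN-gamma, was at 34.4 to 37.7 TPM in GC and 30.7 to 34.8 TPM in naive pools, which overlapped (log2 fold change 0.11, 95% interval -0.06 to 0.29; limma adjusted p = 0.213).

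Of the 5 STATs counted that had at least 1 TPM in every pool, 4 fell, beside the same 30.1% of all genes. Stat6, the main factor of IL-4 signaling, was at 82.0, 78.2 and 85.4 TPM in GC pools and 188.0, 194.6 and 178.8 TPM in naive pools, 2.29-fold lower (log2 fold change -1.18; limma adjusted p = 5.1e-06). Stat3, the main factor for IL-21, was at 79.8, 101.1 and 112.0 TPM against 150.2, 133.2 and 123.2 TPM, with a smaller and more variable difference (log2 fold change -0.48 ± 0.136 SE; limma adjusted p = 0.02). Stat2, a factor for type I interferons, was 1.82-fold lower (limma adjusted p = 6.66e-05). Stat4, which in T and NK cells serves IL-12, was at 1.36, 0.664 and 0.906 TPM in GC pools and at 37.2, 38.4 and 37.1 TPM in naive pools, a 38.4-fold lower mean, and entered the test through its naive level. The T cell genes and the NK and innate genes summed to at most 2.81 and 0.71 TPM in the same naive pools, and their part in the Stat4 level was not tested. Of the paralogous pair on chromosome 11, Stat5b fell by 0.46 on the log2 scale and Stat5a did not pass (-0.13; limma adjusted p = 0.292), and reads shared between these near-identical genes make both values less certain.

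Of 16 inhibitors of the pathway, 15 were tested, and all of these but Socs2 had at least 1 TPM in every pool. Of those 14, 5 were lower and 4 higher, near the 30.1% and 35.5% of all genes tested, and the median log2 fold change was -0.04. Socs3, an inhibitor of signaling through gp130 and STAT3 that is itself induced by such cytokines, was at 4.70 to 5.40 TPM in GC and 47.8 to 59.1 TPM in naive pools (log2 fold change -3.14; limma adjusted p = 1.22e-06). Socs5 fell by 1.74 on the log2 scale. Ptpn6, encoding the phosphatase SHP-1, was at 624.8, 1058 and 702.7 TPM in GC pools and 1728 to 1831 TPM in naive pools (log2 fold change -1.21; limma adjusted p = 0.00139). Socs1, an inhibitor of JAK kinases, was higher, at 30.3 to 32.9 TPM in GC and 11.3 to 15.0 TPM in naive pools (2.39-fold; limma adjusted p = 0.000115).

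**Figure D4:**
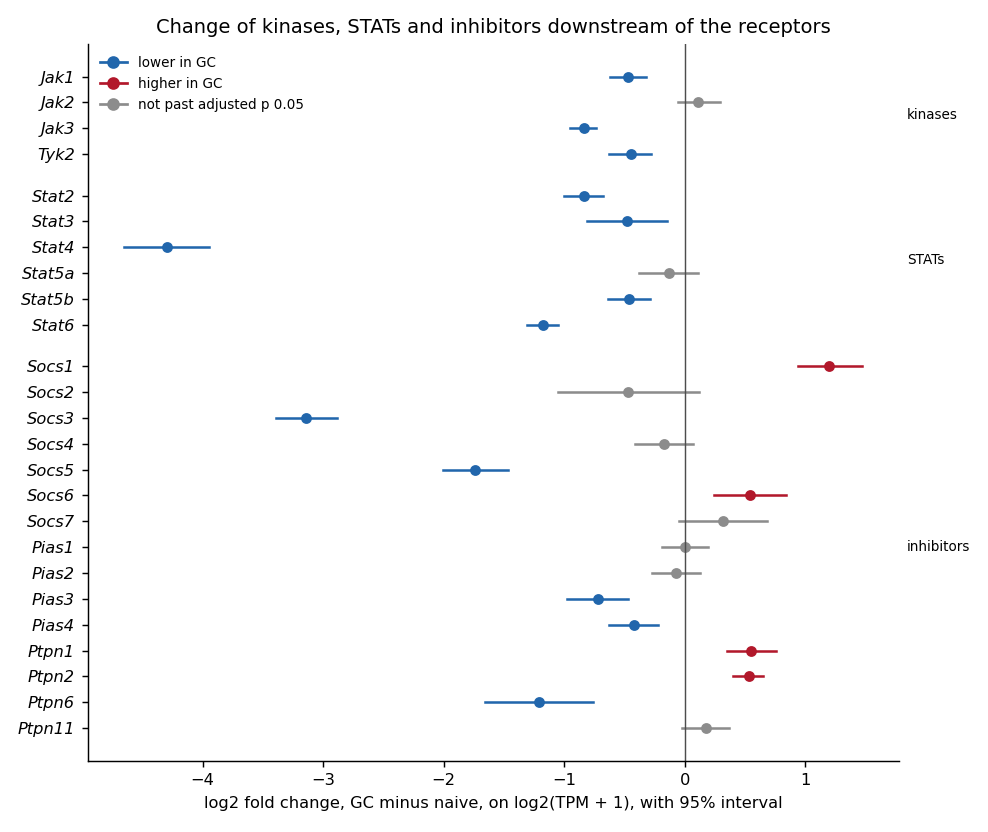
Log2 fold change (GC minus naive, on log2(TPM + 1)) of 4 kinases, 6 STATs and 15 inhibitors with 95% intervals from limma (n = 3 pools per population), where grey marks genes that did not pass an adjusted p of 0.05. In all, 3 kinases and 5 STATs are marked as lower, Stat4 farthest to the left, and the inhibitors lie on both sides of 0.

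Genes known to respond to these cytokines were also counted. Of 10 genes linked to IL-4 or IL-21 in B cells, 9 were tested, and all of these but Prdm1 had at least 1 TPM in every pool. Of those 8, 5 were lower and 3 higher in GC B cells, beside 30.1% and 35.5% of all genes tested, with a median log2 fold change of -0.36. Fcer2a, the low-affinity IgE receptor CD23 that IL-4 induces, was at 97.5 to 106.9 TPM in GC and 680.5 to 715.1 TPM in naive pools (log2 fold change -2.78; limma adjusted p = 1.71e-07). Bcl6, the repressor that defines the GC program, was at 241.8 to 258.0 TPM in GC and 46.9 to 51.6 TPM in naive pools (log2 fold change 2.32; limma adjusted p = 3.34e-07). Irf4, a factor of B cell activation and plasma cell differentiation, was at 21.2 to 22.1 TPM in GC and 70.1 to 79.6 TPM in naive pools (log2 fold change -1.76; limma adjusted p = 2.49e-06). Bcl6 also belongs to the markers by which the GC label was checked, and Socs3 was named above.

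Of 11 genes induced by interferons, 10 were tested, and 7 of these had at least 1 TPM in every pool. Of those 7, 4 were lower and 1 was higher in GC B cells, beside 30.1% and 35.5% of all genes tested, and the median log2 fold change was -0.79. Irf9, which joins STAT2 in the type I interferon complex, was at 24.2 to 27.5 TPM in GC and 73.2 to 78.1 TPM in naive pools (log2 fold change -1.53; limma adjusted p = 4.12e-06). Oas1a, Ifit3 and Mx1, all antiviral effectors, were the other 3 genes, which entered the test through their naive level, at 2.39 to 10.3 TPM in naive pools and no more than 1.56 TPM in GC pools. Ifit3 and Oas1a belong to families of near-identical genes, which makes their values uncertain. The one gene that was higher, named after its value was seen, was the immunoproteasome subunit Psmb8 (log2 fold change 0.36; limma adjusted p = 0.000855). Stat2 is part of this list as well, and Socs1 and Socs3 of the previous one, so the lists are not separate evidence.

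The genes most like 3 of the chains over the 6 pools were found by the root mean square difference of log2(TPM + 1). For Il21r these were Sash3 (0.037), Bag6 (0.081) and Sdha (0.081), and for Il4ra they were Dexi (0.088), Rnf130 (0.104) and Rhof (0.105). For Il2rg they were Zfp36 (0.106), Btg1 (0.111) and Snx2 (0.221). Sash3 was at 173.9 to 176.9 TPM in GC and 211.0 to 218.6 TPM in naive pools. Zfp36 was at 104.3 to 117.8 TPM in GC and 333.2 to 351.2 TPM in naive pools. With only 6 pools in 2 populations, such a likeness describes little more than a similar level in each population.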

How the data were processed

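RNA-Seq libraries from total RNA of sorted Peyer's patch B cells were sequenced by the authors, who trimmed adapters with cutadapt 1.9, quantified reads with RSEM 1.2.25 on the mouse transcriptome (GRCm38, release 75) and deposited 1 FPKM column per pool with 2 decimals. The authors also listed edgeR among their tools without a stated role, so whether it was used to normalize the deposited values is not known. RSEM divides reads shared by near-identical genes by its model. Each FPKM was divided by its column total and multiplied by 1000000 to give TPM, a share of the transcripts of a pool rather than an amount per cell. Only 67.6% to 73.5% of low values lay within 0.15 of a whole number of reads (30.0% by chance), so depth is approximate and no count test was made.

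GC and naive B cells (3 pools each) were compared on log2(TPM + 1) by a linear model per gene with a moderated variance that follows the mean level (limma 3.58.1, R 4.3.3). The model was fitted to the 12785 genes that reached 1 TPM in 3 or more pools, with Benjamini-Hochberg adjustment over all of them. The fit was tested on simulated data. Ratios of chains were compared by exact permutation with Python 3.11.15, scipy 1.17.1 and pandas 2.3.3. Symbols were found for 33398 of 39179 identifiers. Coordinates and promoters came from RefSeq (GRCm38.p6).

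The members, gene lists and promoter patterns were chosen with earlier results of these data known. Named were all 10 chains, the partner chains, kinases and STATs, at most 4 genes of each other list with the largest absolute log2 fold change past the threshold, and the 3 genes most like Il4ra, Il21r and Il2rg. Alternatives covered the pseudocount, filters, scaling, the trend, each pool left out in turn, and the replicate number as a block. Some genes of these lists are not reported here and were left out of the list counts and sums, but not of the fit.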

Additional observations from a re-analysis of the deposited data

How the results depend on the processing

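The results were recomputed under 14 alternative settings of the fit, and the chain ratios under those that apply to them. Of 325 values computed for 29 results, 321 were scored as unchanged. The other 4 were the loss of the Ifngr1 call on leaving out 1 pool. An unchanged fold change kept its direction and its side of the threshold, and an unchanged ratio moved by less than the spread between pools. Counts could move by a set factor, as from 3852 to 4450 genes lower in GC B cells with quantile normalization. Ratios under the replicate block were scored as unchanged by construction. The fitted fold changes of Il21r lay between -0.36 and -0.24, those of Il6st between -1.94 and -1.09, and those of Il10ra between -5.00 and -4.45. The difference in the ratio of Il6ra to Il6st, 0.00 on the log2 scale, took either sign on leaving out 1 pool (-0.42 to 0.22). With at least 5 TPM in 3 pools, 8 chains were called, since Il6st was no longer tested. Leaving out a pool gave 8 to 9 called chains and 7656 to 8101 called genes, and refits kept the genes tested with all pools. Over all genes, 54.1% of calls were higher in GC B cells, and 47.8% after quantile normalization, which shifted the median by -0.088.

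Replicate numbers are shared between the populations, and no source says that they pair mice. The deviations of same-numbered pools correlated at 0.083, 0.022 and 0.046, which does not settle the pairing, and the block was kept as an alternative. Every pool correlated best with its own number except naive replicate 2, which correlated at 0.022 with GC replicate 2 and at 0.030 with GC replicate 3. With the replicate block 7960 genes were called instead of 8392, and all 9 tested chains stayed called. For the chain ratios the replicate block leaves the mean difference as it is by construction, and its exact permutation p cannot go below 0.25. Depth and rounding to 2 decimals limit Il13ra1, the ligands and the GC level of Il6st: the median coefficient of variation among GC pools was 17.9% for genes at 1 to 10 TPM and 3.73% at 100 to 1000 TPM.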
